A study of Danio rerio with 8 samples.

Results

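The genes described here mostly encode subunits of the oxidative phosphorylation complexes of the inner mitochondrial membrane. They were taken from the annotation by symbol: nuclear genes for complex I (symbols starting ndufa, ndufb, ndufc, ndufs or ndufv), complex II (sdha, sdhb, sdhc and SDHD), complex III (uqcr), complex IV (cox4 to cox8) and complex V (atp5), together with the mitochondrially encoded genes of the same complexes. The rule used no measured difference between diets, but it was chosen with earlier results of these data known. It was applied without regard to capitals, since the gene name table gives 81 of the members in capital letters. Of 32520 annotated genes, 117 had such a symbol and 114 of these had at least 10 reads over all livers, among 19528 genes with as many. The 114 members were 13 mitochondrially encoded and 101 nuclear genes. Not all nuclear members are subunit genes: they include 8 complex I assembly factors (ndufaf), the ATP synthase inhibitors (atp5if1a and atp5if1b) and the supercomplex factor cox7a2l. The 3 names with fewer reads were ndufs1, which was listed at 0 in every fish, a second SDHD gene (ENSDARG00000055712) with 7 reads and ndufa4l2b with 1 read. A gene is written in lower case where a zebrafish symbol could be matched to it, and otherwise in capitals with its Ensembl identifier at first use.

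Oxidative phosphorylation moves electrons from NADH and succinate to oxygen through complexes I to IV, pumps protons across the inner membrane at complexes I, III and IV, and lets them flow back through complex V, the ATP synthase, to make ATP. Complexes I, III, IV and V are built from proteins of both genomes, whereas every subunit of complex II is nuclear. The liver is rich in mitochondria and uses this pathway to meet the cost of gluconeogenesis, protein secretion and, in laying females, the production of yolk proteins.

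The livers came from 36-week-old female zebrafish (Danio rerio) on 2 formulated diets offered from day 21 at a ration of ca. 6% of body weight per day. Fish on the whole egg diet (egg diet, n = 4) received a diet in which a whole egg product replaced ca. 50% of the protein, and CON fish (n = 4) received the control diet, whose protein came from several sources. As formulated, the egg diet also held more lipid and energy and less wheat starch than the control diet. Egg protein and these other differences cannot be told apart here. Neither a strain nor a genetic change is given for either group, and 1 whole liver per fish gave 1 library. The question was whether long-term feeding on egg alters gene expression in the liver. The 4 fish of each diet (Egg-1 to Egg-4 and CON-1 to CON-4, values being given by fish number) are taken as the replicates, although their tanks are not known. Whole liver contains more than hepatocytes, and in such bulk tissue fewer cells of a type and less RNA per cell cannot be told apart.

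Each library held between 16916307 and 35871236 reads on genes. The 13 mitochondrially encoded members took 144814 to 307587 of them and the 101 nuclear members 26678 to 51151. Values are CPM, a gene's count relative to the library total after that total is scaled by edgeR's TMM factors, a scaling which corrects for the few very abundant transcripts that held 64.9 to 75.98% of the reads in the 10 leading genes of each liver. The TMM factor was 1.72 in Egg-2 and 0.682 to 1.18 in the other 7 fish, so CPM place Egg-2 lower than library totals alone would. The ranks of fish and the spreads within a diet given below in CPM depend on these factors. Egg-2 stood apart from the other livers in its markers. The summed level of 11 ovary markers, such as zona pellucida and oocyte genes, was 525 CPM in Egg-2 and 3.49 to 59.6 CPM in the other 7 fish, while that of 11 liver markers was 9292 CPM in Egg-2 and 22626 to 35144 CPM in the others. Without the factors the ovary markers summed to 901 in Egg-2 and 2.58 to 70.4 in the others, and the liver markers to 15948 in Egg-2 and 18580 to 40797 in the others. The liver markers were present in all 8 samples. Intestine markers peaked in CON-2 at 98.9 CPM, where the other 7 fish had at most 5.67 CPM, and 6 of 8 muscle markers had reads, with no more than 15.2 CPM summed. Between diets, 0 markers of any tissue passed adjustment. At an unadjusted p under 0.05 edgeR had 2 of 9 tested ovary markers (buc and dazl) higher in egg-diet livers and 0 of 11 liver, 11 exocrine pancreas, 4 blood, 3 immune and stroma, 1 intestine and 1 muscle markers in either direction. Of all genes tested, 2.54% were higher and 1.36% were lower at that level. The 9 tested ovary markers had a median log2 fold change, egg diet over CON, of 2.83 (3.58 without scaling factors), with 0 of them below 0. Apart from Egg-2 the summed ovary markers overlapped between diets. They were 3.49, 59.6 and 22.3 CPM in the other egg-diet livers, against 3.78 to 35.6 CPM in CON livers. A median without Egg-2 is not given here. Summed pancreas markers ran from 149 CPM in Egg-1 to 1826 CPM in CON-2.

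No oxidative phosphorylation gene differed between the diets at an adjusted p under 0.1. Of the 114 members, 107 had enough reads to be tested, and edgeR's quasi-likelihood test with Benjamini-Hochberg adjustment called 0 of them, against 0.0% of the 13379 genes tested. At an unadjusted p under 0.05, 1 member was lower in egg-diet livers (ndufb2) and 0 were higher, whereas 1.36% of all genes were lower and 2.54% were higher at that level. DESeq2 likewise called 0 members after adjustment and had 1 lower at an unadjusted p under 0.05, as it had 1.43% of all genes. The standard error of a member's log2 fold change had a median of 0.259, and the adjusted p-values of the members ran between 0.8097 and 0.999. The 7 members not tested (ndufa9b, ndufaf4, ndufaf8, uqcrb, COX5B ENSDARG00000113254, NDUFA4L2 ENSDARG00000103114 and ndufa4b) had means of 0.0896 to 0.609 CPM over the 8 fish.

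The small differences of the members mostly had one sign. The fitted log2 fold change, egg diet over CON, was below 0 for 95 of the 107 tested members (88.8%), where 45.8% of all genes tested were below 0, although without scaling factors 9 of 107 members and 10.5% of all genes were. The median was −0.23 over the 94 tested nuclear members, −0.22 over the 13 mitochondrially encoded members and 0.043 over all genes. Much of this rested on Egg-2, and without it, 71 of 108 members (65.7%) were below 0, against 48.01% of all genes, and the medians were −0.069 for nuclear and −0.061 for mitochondrially encoded members. Members of a complex share a tissue and a library, so these counts describe the 8 livers and are not independent observations. The sign was not particular to the members. Of the tested liver markers 10 of 11 were also below 0 (median −0.29), and of the exocrine pancreas markers 11 of 11 (median −0.49). Without scaling factors these were 5 and 11. Ovary markers had 0 of 9 below 0, blood markers 0 of 4 and immune and stroma markers 1 of 3. By complex, the median was lowest for mitochondrially encoded complex III (mt-cyb, −0.29) and highest for the complex I assembly factors (−0.064, 6 tested).

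**Figure D1:**
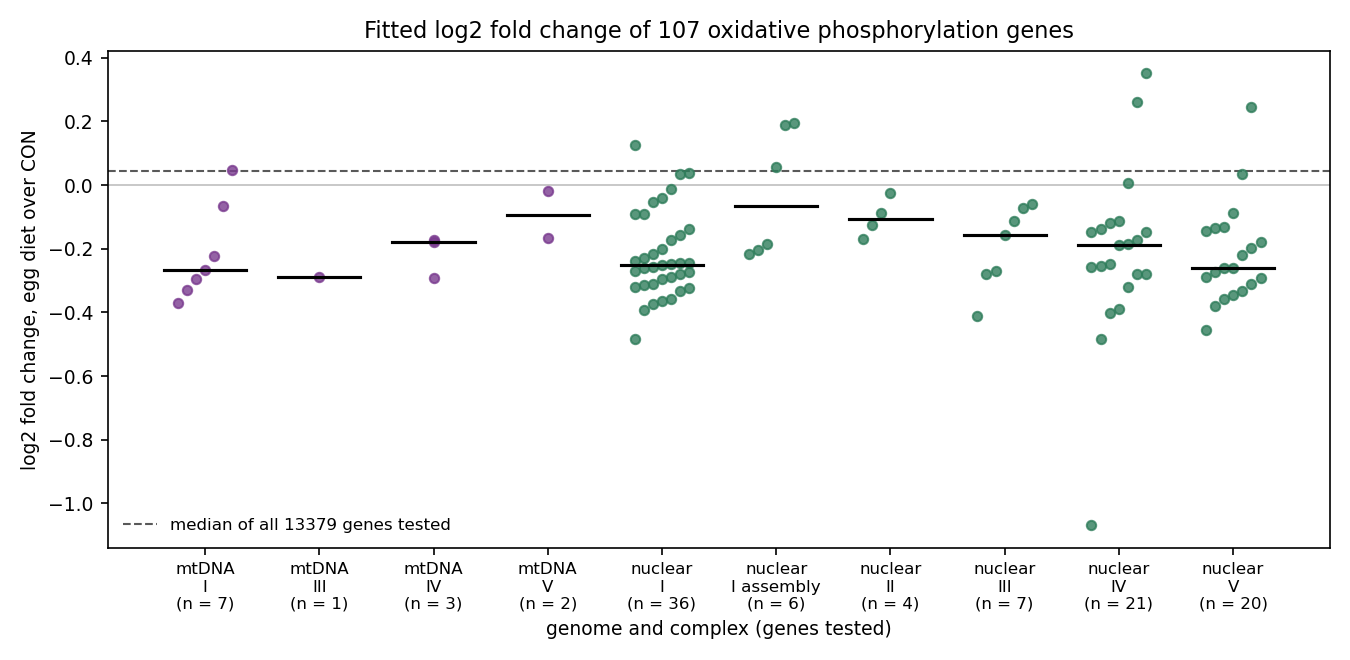
Fitted log2 fold change (egg diet over CON, all 8 fish, edgeR with TMM scaling) of the 107 tested members, 1 point per gene, by genome and complex, with the median of each group as a black line and the median of all 13379 genes tested as a dashed line. The group medians lie between −0.29 and −0.064, below the dashed line at 0.043, and no single gene passed the adjusted threshold. Without scaling factors the medians of the nuclear and mitochondrial groups are above 0 (0.17 and 0.15), but below that of all genes (0.49).

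In TMM-scaled CPM, though not as shares of reads, both genomes gave their lowest totals in Egg-2. The 13 mitochondrially encoded genes summed to 11361, 5571, 8517 and 8728 CPM in egg-diet livers, against 10841, 9424, 9741 and 10770 CPM in CON livers. The mean was 8544 ± 2367 CPM in egg-diet livers and 10194 ± 719 CPM in CON livers (SD, n = 4 each), a log2 ratio of the means of −0.25 (0.13 without scaling factors). Egg-1 had the highest and Egg-2 the lowest of all 8 sums, so the CON livers lay inside the range of the egg-diet livers in CPM. As shares of reads this was reversed, and CON livers held both the highest and the lowest value (1.09 and 0.734%). The 101 nuclear members summed to 1563, 959.6, 1366 and 1715 CPM in egg-diet livers, against 1599, 1536, 1619.9 and 1834 CPM in CON livers. Here CON-4 was highest, Egg-4 next and Egg-2 lowest, and the log2 ratio of the means was −0.23 (0.16 without scaling factors), with 1401 ± 327 CPM in egg-diet livers and 1647 ± 129.7 CPM in CON livers. Without Egg-2, the egg-diet means were 9535 ± 1585 CPM for the mitochondrial sum and 1548 ± 175 CPM for the nuclear sum (n = 3). The higher ovary and lower liver marker levels given above moved with the low sums of this fish, and their part in the result was not tested.

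As a share of all reads on genes, which needs no scaling factor, the order of the fish changed. The mitochondrially encoded members held 1.05, 0.95004, 1.004 and 0.856% in egg-diet livers, against 0.8403, 1.09, 0.857 and 0.734% in CON livers. Egg-2 ranked in the middle for these shares. It was also the fish with the lowest share of reads in its 10 leading genes (64.9%), though Egg-3 (65.8%) and CON-2 (66.3%) were close to it. The nuclear members held 0.145, 0.164, 0.161 and 0.168% in egg-diet livers, against 0.124, 0.178, 0.143 and 0.125% in CON livers, and the ranges of the diets overlapped for both genomes. The mean share was 0.966 ± 0.0845% in egg-diet livers and 0.881 ± 0.151% in CON livers for the mitochondrial members, and 0.159 ± 0.0101% in egg-diet livers and 0.142 ± 0.0252% in CON livers for the nuclear ones (SD, n = 4 each), so the egg-diet means were the higher ones on this scale. Unlike in CPM, CON livers had the larger SD on this scale and held both ends of the range, for both genomes. Most genes were higher in egg-diet livers on this scale. The median log2 fold change was 0.49 over all genes tested, 0.15 over mitochondrial and 0.17 over nuclear members. The 95% Wilson interval of each share was at most 0.00933 percentage points wide for the mitochondrial members and 0.00391 for the nuclear ones, and covers counting error only. The ratio of mitochondrially encoded to nuclear reads, which cancels the scaling of a library, was 7.27, 5.81, 6.23 and 5.09 in egg-diet livers, against 6.78, 6.14, 6.01 and 5.87 in CON livers. It averaged 6.099 ± 0.911 in egg-diet livers and 6.201 ± 0.402 in CON livers (SD, n = 4 each), a difference within the spread between fish.

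**Figure D2:**
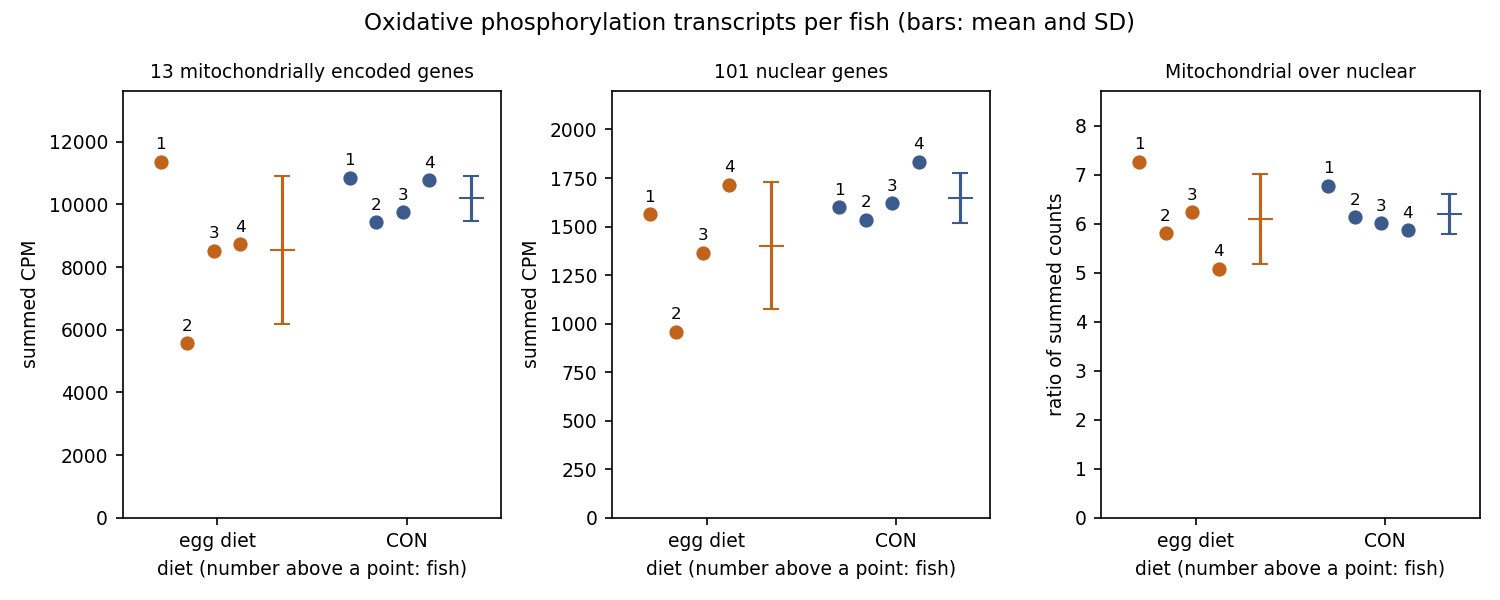
Summed CPM of the 13 mitochondrially encoded members (left), of the 101 nuclear members (middle) and the ratio of their summed reads (right) in each fish, egg diet and CON, with the mean and SD (n = 4 each) beside the points. With TMM scaling, but not without it, Egg-2 is lowest in both sums (5571 and 959.6 CPM), and the ratio runs between 5.09 and 7.27 with the diets overlapping.

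Of the mitochondrially encoded genes, the 7 for complex I form the core of its proton-pumping membrane arm. mt-nd5 had 773, 393, 477 and 472 CPM in egg-diet livers, against 697, 693, 655 and 689 CPM in CON livers. In TMM-scaled CPM the 4 CON values lay within 655 to 697 CPM. The egg-diet values were spread on both sides of them, with Egg-1 above and the other 3 below. The log2 fold change of mt-nd5 was −0.37 (SE 0.258) with an adjusted p of 0.812 by edgeR, and its exact two-sided permutation p was 0.143, where the smallest the 35 splits of 8 fish allow is 0.0286. mt-nd4 had 667, 369, 428 and 411 CPM in egg-diet livers, against 611, 602, 571 and 571 CPM in CON livers, and again Egg-1 was above and Egg-2, Egg-3 and Egg-4 were below all CON fish. Its log2 fold change was −0.33 (SE 0.247). The narrow CON ranges of mt-nd5 and mt-nd4 are of TMM-scaled CPM and depend on the factors. For mt-nd1 the values were 525, 231, 324 and 259 CPM in egg-diet livers, against 480.3, 427, 353 and 352 CPM in CON livers, with Egg-1 highest, Egg-2 lowest and a log2 fold change of −0.27 (SE 0.299). mt-nd2, mt-nd3 and mt-nd4l followed the same order of Egg-1 highest and Egg-2 lowest, with log2 fold changes of −0.064 (SE 0.344), −0.30 (SE 0.302) and −0.22 (SE 0.259).

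mt-nd6 is the only protein-coding gene on the light strand of vertebrate mitochondrial DNA, and it had 60.7, 29.1, 38.1 and 54.5 CPM in egg-diet livers, against 42.2, 41.8, 49.5 and 43.04 CPM in CON livers. Egg-1 and Egg-4 were above all CON fish and Egg-2 and Egg-3 below them. Its log2 fold change was 0.047 (SE 0.2598), the only positive one of the 13, although it was negative with upper quartile normalization (−0.022) and all 13 were positive without scaling factors. The opposite strand of its locus gave more reads than the gene itself: 50.5 to 67.02% of the reads at the locus were of the other strand, against 0.199 to 0.342% for mt-co2. mt-nd5 had the next highest such share, 16.6 to 23.4%. At mt-nd5 and mt-cyb every egg-diet fish was above every CON fish in this share, which was the case in 1.21% of all genes with 10 or more such reads. The mean share was higher in egg-diet livers at every mitochondrially encoded gene except mt-nd6. The counts used here are those of the gene's own strand, so reads of a partner on the other strand do not enter them.

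Cytochrome b, the mitochondrially encoded subunit of complex III and its quinone-binding core, is the product of mt-cyb. It had 1333, 665, 943 and 922 CPM in egg-diet livers, against 1237, 1115, 1198 and 1166 CPM in CON livers. In TMM-scaled CPM the 4 CON fish were within 1115 to 1237 CPM, with Egg-1 above them and the other egg-diet fish below. This narrow CON range also depends on the factors. The log2 fold change was −0.29 (SE 0.259), adjusted p 0.834 by edgeR, and the exact two-sided permutation p was 0.143.

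The 3 mitochondrially encoded subunits of complex IV, cytochrome c oxidase, carry its heme and copper centres (mt-co1 and mt-co2) or support them (mt-co3). mt-co1 had 3815, 1982, 3473 and 3413 CPM in egg-diet livers, against 4007, 3388, 3702 and 4438 CPM in CON livers. CON-4 was highest and Egg-2 was lowest by a wide margin, and the log2 fold change was −0.29 (SE 0.281). mt-co2 had 1430.4, 677, 1116 and 1169 CPM in egg-diet livers, against 1280.4, 1093, 1185 and 1412 CPM in CON livers, with a log2 fold change of −0.18 (SE 0.275). Egg-1 was its highest fish and Egg-2 its lowest. For mt-co3 the values were 1624, 810.4, 1094 and 1477 CPM in egg-diet livers, against 1572, 1313, 1364 and 1387 CPM in CON livers, and the log2 fold change was −0.17 (SE 0.273). Without Egg-2 the 3 fold changes came to between −0.12 (mt-co1) and 0.00 (mt-co2).

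Complex V takes 2 membrane subunits from mitochondrial DNA, the proton channel subunit of mt-atp6 and the small subunit of mt-atp8. mt-atp6 had 669.7, 244, 377 and 314 CPM in egg-diet livers, against 547, 449.6, 385 and 419 CPM in CON livers, so Egg-1 and Egg-2 bounded all other fish. mt-atp8 had 16.2, 5.56, 10.7 and 13.5 CPM in egg-diet livers, against 11.2, 10.4, 12.6 and 12.3 CPM in CON livers. Their log2 fold changes were −0.17 (SE 0.329) and −0.020 (SE 0.309). Over all 13 mitochondrially encoded members, Egg-2 was the lowest fish in 13 and Egg-1 the highest in 12 (0 and 7 without scaling factors), against 26.0% and 16.0% of all genes tested. The remaining gene, mt-co1, was highest in CON-4. When Egg-1 was left out, the median log2 fold change of the 13 genes was −0.49, when Egg-2 was left out it was −0.061, and in neither fit was a member called (smallest adjusted p 0.435 and 0.999 by edgeR).

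Nuclear DNA encodes the remaining subunits of complex I, among them the flavin- and iron-sulfur-bearing core of the arm that takes electrons from NADH. The 37 nuclear subunit genes summed to 258, 153, 204 and 235 CPM in egg-diet livers, against 246, 244, 252 and 261 CPM in CON livers. Of the 36 tested, 33 had a log2 fold change below 0 (3 without scaling factors), 0 were called and the median was −0.25. ndufv1, the NADH-binding subunit, had 23.5, 18.9, 23.5 and 27.8 CPM in egg-diet livers, against 28.9, 24.8, 26.000 and 32.2 CPM in CON livers, and CON-4 and CON-1 were its highest fish. NDUFS8 (ENSDARG00000051986), an iron-sulfur protein of the core, had 25.03, 14.4, 17.9 and 27.6 CPM in egg-diet livers, against 26.04, 25.6, 22.8 and 25.6 CPM in CON livers, with Egg-4 highest, Egg-2 lowest and CON fish between 22.8 and 26.04 CPM. These were the nuclear complex I genes with the highest mean CPM, which is not corrected for gene length.

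ndufb2, an accessory subunit of the membrane arm, was the single member below an unadjusted p of 0.05. It had 3.79, 3.51, 4.08 and 4.82 CPM in egg-diet livers, against 5.93, 4.71, 5.99 and 5.98 CPM in CON livers. The diets overlapped only in that Egg-4 was above CON-2. The log2 fold change was −0.48 (SE 0.205), with an unadjusted p of 0.0425 and an adjusted p of 0.8097 by edgeR, and the exact two-sided permutation p was 0.0571. The gene had 865 reads over the 8 fish on its own strand and 1503 when strand was ignored, and with those unstranded reads its log2 fold change was 0.028.

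ndufb5 and ndufa10, accessory subunits as well, had the next smallest p-values in complex I. ndufb5 had 6.69, 3.63, 5.83 and 5.06 CPM in egg-diet livers, against 6.37, 7.34, 6.87 and 7.22 CPM in CON livers. Its CON values were at or above 6.37 CPM and 3 of the 4 egg-diet values were below that level. ndufa10 had 12.1, 6.62, 9.05 and 8.26 CPM in egg-diet livers, against 10.6, 12.9, 11.3 and 11.6 CPM in CON livers. Their log2 fold changes were −0.39 (SE 0.2299) and −0.37 (SE 0.226), both with an adjusted p of 0.8097 by edgeR. ndufa3, named after its values were seen, was the only tested member in which every egg-diet fish was below every CON fish, a pattern shown by 1.13% of all genes, and 0 members had every egg-diet fish above every CON fish, against 1.01% of all genes. It had 5.46, 3.34, 4.53 and 5.24 CPM in egg-diet livers, against 5.93, 5.71, 5.48 and 5.91 CPM in CON livers, and the highest egg-diet fish, Egg-1, was just under the lowest CON fish, CON-3. Its log2 fold change was −0.31 (SE 0.217), and its exact two-sided permutation p was 0.0286, the smallest the design can give. Any gene whose diets do not overlap gets this value, so the p adds nothing to the pattern by which ndufa3 was picked. ndufv3, a small subunit beside the NADH-binding site, was the complex I subunit with the smallest p on the positive side, with 3.29, 2.25, 2.69 and 3.19 CPM in egg-diet livers, against 3.296, 2.54, 2.69 and 1.92 CPM in CON livers and a log2 fold change of 0.12 (SE 0.261).

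The ndufaf genes encode assembly factors, which build complex I and are not part of the finished enzyme. The 8 of them summed to 18.8, 11.3, 12.7 and 12.2 CPM in egg-diet livers, against 18.8, 14.8, 13.5 and 11.5 CPM in CON livers. Egg-2 was lowest in 3 of the 6 tested and had the lowest sum, with CON-4 and Egg-4 next. Of the 36 tested subunit genes it was lowest in 29, and without scaling factors in 0 of the 6 and 1 of the 36. ndufaf1 had 6.34, 1.698, 2.65 and 2.53 CPM in egg-diet livers, against 5.71, 4.58, 2.69 and 2.34 CPM in CON livers, so Egg-1 and CON-1 were high. ndufaf6 had 0.983, 0.761, 0.693 and 0.783 CPM in egg-diet livers, against 0.989, 0.725, 0.792 and 0.275 CPM in CON livers, with a log2 fold change of 0.19 (SE 0.383). ndufaf2 was highest in Egg-2, at 1.84 CPM, where the other 7 fish had 0.422 to 1.17 CPM.

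Complex II, succinate dehydrogenase, belongs to both the citrate cycle and the respiratory chain and has no mitochondrially encoded part. Its flavoprotein gene sdha had 33.6, 15.9, 30.3 and 23.4 CPM in egg-diet livers, against 29.4, 26.2, 29.8 and 23.99 CPM in CON livers. The iron-sulfur subunit gene sdhb had 6.49, 3.601, 5.71 and 4.34 CPM in egg-diet livers, against 7.53, 7.21, 3.93 and 3.99 CPM in CON livers. In sdhb the spread lay within CON, where CON-1 and CON-2 were well above CON-3 and CON-4. Of the membrane anchor genes, sdhc had 6.59, 4.22, 5.097 and 5.54 CPM in egg-diet livers, against 5.27, 5.89, 7.03 and 5.16 CPM in CON livers. SDHD (ENSDARG00000030139) had 8.56, 4.74, 6.77 and 8.196 CPM in egg-diet livers, against 8.24, 6.62, 7.63 and 6.19 CPM in CON livers. All 4 genes were lowest in Egg-2, for sdhb by a small margin. Their log2 fold changes, all positive without scaling factors, ran between −0.17 and −0.024 with adjusted p-values of at least 0.899 by edgeR.

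In complex III, which passes electrons from ubiquinol to cytochrome c, 7 of the 8 nuclear members were tested, and all 7 had a log2 fold change below 0 (1 without scaling factors) with a median of −0.16. uqcrc2a, a core protein gene, had 41.8, 23.8, 41.8 and 65.4 CPM in egg-diet livers, against 64.5, 43.6, 58.998 and 62.5 CPM in CON livers. Egg-4 was its highest fish and Egg-2 its lowest, and the 4 CON values lay above the other 3 egg-diet fish. Its paralog uqcrc2b had 20.7, 11.2, 17.4 and 15.3 CPM in egg-diet livers, against 21.04, 19.2, 19.98 and 18.1 CPM in CON livers. uqcrfs1, the gene of the Rieske iron-sulfur protein, had 33.1, 19.6, 26.3 and 23.7 CPM in egg-diet livers, against 27.7, 24.7, 29.2 and 26.3 CPM in CON livers. Egg-1 was highest and Egg-2 lowest, and the 4 CON fish lay between them. uqcrb reached at most 0.285 CPM in any fish and was not tested.

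Complex IV had 24 nuclear members, including NDUFA4 genes, whose product is a subunit of this complex in mammals, and the supercomplex factor cox7a2l. Of the 21 tested, 18 had a log2 fold change below 0 (4 without scaling factors), 0 were called and the median was −0.19. cox4i1, the main isoform of the regulatory subunit IV, had 45.6, 25.5, 45.7 and 60.3 CPM in egg-diet livers, against 48.5, 44.1, 54.5 and 64.1 CPM in CON livers, with CON-4 and Egg-4 highest. NDUFA4 (ENSDARG00000099499) had 35.6, 22.7, 46.3 and 60.03 CPM in egg-diet livers, against 47.8, 35.9, 50.4 and 61.5 CPM in CON livers, the same fish being high. cox6c, a small subunit gene without a paralog among the members, had 7.18, 3.48, 6.08 and 6.63 CPM in egg-diet livers, against 6.92, 8.07, 8.17 and 9.49 CPM in CON livers. In cox6c, Egg-1 alone of the egg-diet fish reached the lowest CON value, and the log2 fold change was −0.48 (SE 0.259) with an adjusted p of 0.8097 by edgeR.

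cox4i1l, a second cox4i1-type gene, varied most between fish of all members with a mean of at least 1 CPM. It had 0.443, 0.468, 0.693 and 1.57 CPM in egg-diet livers, against 0.3296, 0.861, 1.77 and 3.64 CPM in CON livers. CON-4 and CON-1 held both ends of the range, so the spread lay mainly within one diet. Its log2 fold change was −1.07 (SE 0.704), the lowest of all members, with an adjusted p of 0.8097 by edgeR and an exact two-sided permutation p of 0.40000. cox4i2, in mammals the isoform of lung and hypoxic cells, had 1.43, 0.322, 0.693 and 0.603 CPM in egg-diet livers, against 0.769, 0.544, 1.33 and 0.275 CPM in CON livers.

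Further complex IV subunits were measured as pairs or triplets of paralogs. cox5aa, a gene for subunit Va, had 29.6, 20.7, 32.4 and 45.5 CPM in egg-diet livers, against 38.01, 32.7, 35.5 and 39.5 CPM in CON livers. COX5A (ENSDARG00000099663) had 6.74, 5.09, 6.32 and 9.88 CPM in egg-diet livers, against 7.64, 8.07, 8.68 and 9.07 CPM in CON livers. The cox6b genes encode a subunit on the outer face of the complex. cox6b2 had 29.1, 16.01, 30.01 and 42.8 CPM in egg-diet livers, against 29.3, 27.1, 31.6 and 41.7 CPM in CON livers. cox6b1 had 19.9, 8.61, 18.3 and 21.5 CPM in egg-diet livers, against 15.8, 19.1, 20.6 and 27.5 CPM in CON livers. In these 4 genes Egg-4 and CON-4 were the 2 highest fish and Egg-2 the lowest. cox7a1, in mammals the isoform of heart and skeletal muscle, had 15.3, 7.61, 15.5 and 24.6 CPM in egg-diet livers, against 18.7, 19.9, 17.7 and 26.2 CPM in CON livers. Muscle markers summed to no more than 15.2 CPM in any liver. In TMM-scaled CPM, CON-2, CON-4 and Egg-4 were the highest fish both in these markers and in cox7a1. Whether muscle tissue contributed to the level of cox7a1 was not tested. COX7A2 (ENSDARG00000110700) had 4.52, 2.52, 3.996 and 6.27 CPM in egg-diet livers, against 3.74, 4.08, 4.497 and 6.81 CPM in CON livers. The other COX7A2 gene (ENSDARG00000053217) had 3.44, 2.25, 3.02 and 3.62 CPM in egg-diet livers, against 3.74, 3.85, 3.01 and 3.44 CPM in CON livers. All 3 genes were lowest in Egg-2. cox7b and cox7c, small subunit genes, ranged over 9.51 to 20.8 CPM and 6.85 to 15.2 CPM, both lowest in Egg-2. cox8b had 22.03, 5.88, 18.8 and 18.98 CPM in egg-diet livers, against 17.6, 18.8, 21.6 and 21.6 CPM in CON livers. cox8a had 2.11, 0.381, 1.39 and 1.45 CPM in egg-diet livers, against 1.099, 2.402, 1.36 and 2.13 CPM in CON livers. Egg-2 had less than any other fish of both cox8 genes, and for cox8b the other 7 fish lay within 17.6 to 22.03 CPM.

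The ATP synthase had 20 nuclear members, all tested, of which 18 had a log2 fold change below 0 (1 without scaling factors), 0 were called and the median was −0.26. They summed to 754, 504, 652 and 859 CPM in egg-diet livers, against 789, 767, 788 and 949 CPM in CON livers. atp5f1b, the catalytic beta subunit of the F1 head, had 175, 125, 149.6 and 201 CPM in egg-diet livers, against 178, 173, 177 and 218 CPM in CON livers. ATP5F1A (ENSDARG00000010149), the alpha subunit, had 169, 125, 146 and 184 CPM in egg-diet livers, against 179, 176, 169 and 225 CPM in CON livers. In both, CON-4 was highest and Egg-2 lowest, and CON-1, CON-2 and CON-3 were within 173 to 178 CPM for atp5f1b. atp5md, a small membrane subunit gene, had 7.18, 3.63, 5.14 and 4.76 CPM in egg-diet livers, against 6.15, 7.57, 7.41 and 7.22 CPM in CON livers, with a log2 fold change of −0.45 (SE 0.243) and an adjusted p of 0.8097 by edgeR. Egg-1 was within its CON values and the other 3 egg-diet fish were below them.

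The inhibitors of the ATP synthase, which stop the enzyme from hydrolysing ATP when the proton gradient fails, are encoded by atp5if1a and atp5if1b. atp5if1b had 10.8, 4.098, 8.73 and 8.08 CPM in egg-diet livers, against 9.503, 7.795, 10.8 and 10.5 CPM in CON livers. atp5if1a had 2.21, 2.72, 1.96 and 2.05 CPM in egg-diet livers, against 1.76, 1.68, 1.81 and 2.34 CPM in CON livers. The pair differed in Egg-2, which was lowest in atp5if1b and highest in atp5if1a. Their log2 fold changes were −0.29 (SE 0.297) and 0.24 (SE 0.2504), with an adjusted p of 0.844 for each by edgeR.

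**Figure D3:**
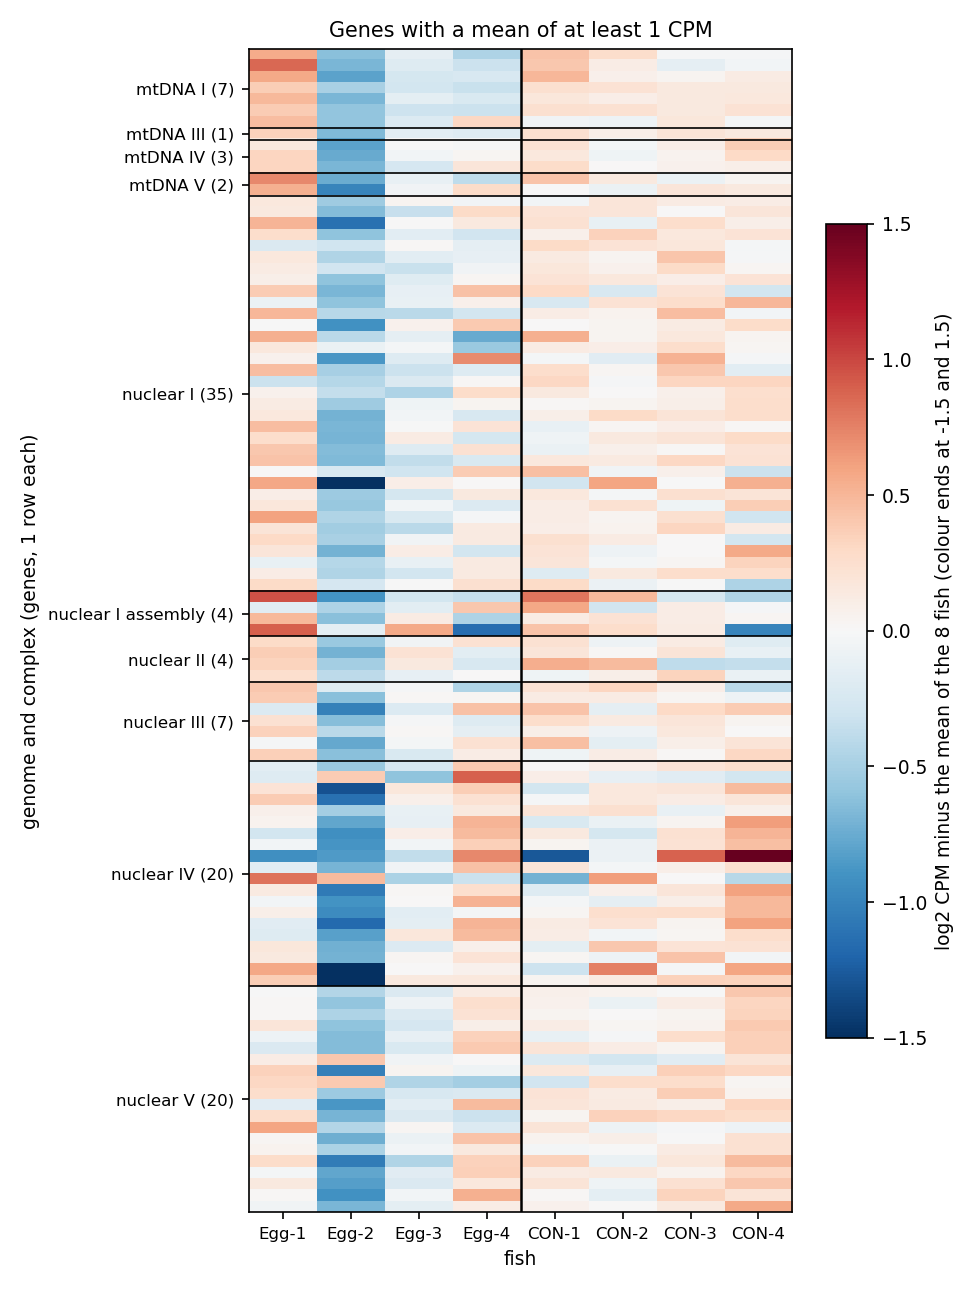
Deviation of log2 CPM from the mean of the 8 fish for the 103 members with a mean of at least 1 CPM, 1 row per gene, ordered by genome and complex, with the 4 egg-diet fish left and the 4 CON fish right of the line. With TMM scaling, but not without it, Egg-2 forms a column of low values (medians of −0.69 over mitochondrially encoded and −0.63 over nuclear members), and Egg-1 is high mainly in the mitochondrially encoded rows (0.47). Over all genes tested the median of Egg-2 is −0.038.

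Across the tested members, single fish held most of the extremes. Egg-2 was the lowest of the 8 fish in 90 of the 107 members (84.1%), where it was lowest in 26.0% of all genes tested. These ranks depended on the TMM factors: without them Egg-2 was lowest in 6 of the 107 members (5.61%) and in 2.92% of all genes, and CON-4 was lowest in 58 members and 43.2% of all genes. A factor shifts all genes of a fish alike, so the distance of the members from all genes within a fish does not depend on it. The median deviation of Egg-2 from the 8-fish mean of log2 CPM was −0.63 over nuclear members with a mean of at least 1 CPM, and −0.038 over all genes tested. It was deepest in nuclear complex IV (−0.87) and shallowest in nuclear complexes I and II (−0.53 each). Egg-1 was the highest fish in 34 members, CON-4 in 25 and Egg-4 in 17, and CON-4 was highest in 16.1% of all genes. In Egg-1 the mitochondrially encoded genes stood highest, with a median deviation of 0.47 against 0.16 for nuclear members. Egg-4 showed the opposite, with −0.22 for mitochondrially encoded and 0.13 for nuclear members, and within the nuclear set 0.36 for complex IV and 0.033 for complex I. The median range between the highest and lowest fish was 1.07 log2 units for members and 1.45 for all genes. These sets were not matched for expression level, so the ranges do not compare members with genes of like level.

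The balance between complexes, taken as ratios of summed reads within a liver, also did not separate the diets. Mitochondrially encoded complex IV reads over complex I reads came to 2.78, 2.92, 3.78 and 4.27 in egg-diet livers, against 3.13, 2.82, 3.301 and 3.74 in CON livers. Nuclear complex IV reads over nuclear complex I reads came to 1.25, 1.15, 1.55 and 1.75 in egg-diet livers, against 1.31, 1.33, 1.42 and 1.596 in CON livers. Both ratios were highest in Egg-4, with Egg-3 and CON-4 in the next places, so the same 3 fish led in both genomes. The nuclear ratio averaged 1.42 ± 0.276 in egg-diet livers and 1.41 ± 0.132 in CON livers (SD, n = 4 each). For nuclear complex V over nuclear complex I the ratio was 2.93, 3.29, 3.199 and 3.65 in egg-diet livers, against 3.201, 3.15, 3.12 and 3.64 in CON livers. Mitochondrially encoded over nuclear reads of complex V were 0.9101, 0.495, 0.594 and 0.381 in egg-diet livers, against 0.707, 0.5995, 0.505 and 0.454 in CON livers, a ratio that varied over 2.39-fold between Egg-1 and Egg-4, and the corresponding ratio for complex IV varied over 1.45-fold. These ratios are of reads and are not corrected for gene length, so they compare fish and not the amounts of the complexes.

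Several subunits are encoded by duplicated genes, and the share of a family's reads that each copy took is independent of library scaling. In several families the shares differed little between fish: cox4i1 took 94.2 to 97.8% of the cox4 reads, cox5aa 80.2 to 83.7% of the cox5a reads, cox6b2 58.7 to 66.5% of the cox6b reads and cox8b 88.7 to 94.1% of the cox8 reads. The diets overlapped in all 13 families examined. In 4 families, named after their values were seen, Egg-2 stood apart from the other 7 fish. The COX5B copy ENSDARG00000015978 took 52.03% (243 of 467 reads, 95% Wilson interval 47.5 to 56.5%) of the COX5B reads in Egg-2 and 15.96 to 32.4% in the other fish. Its level was 4.77, 7.11, 3.55 and 10.2 CPM in egg-diet livers, against 5.82, 4.99, 4.81 and 4.47 CPM in CON livers. The copy ENSDARG00000068738 had 18.9, 6.56, 18.5 and 21.2 CPM in egg-diet livers, against 13.6, 18.4, 18.6 and 22.9 CPM in CON livers. In Egg-2 the first copy was second highest of the 8 fish while the second copy was lowest.

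A like split was seen in the COX6A genes, where cox6a1 took 46.9% (241 of 514 reads, 95% Wilson interval 42.6 to 51.2%) of the reads in Egg-2 and 15.1 to 28.5% in the other fish. cox6a1 had 8.998, 7.05, 3.63 and 4.04 CPM in egg-diet livers, against 3.08, 7.84, 5.07 and 3.78 CPM in CON livers. COX6A1 (ENSDARG00000054588) had 22.8, 7.99, 18.4 and 20.6 CPM in egg-diet livers, against 17.4, 19.6, 18.9 and 19.8 CPM in CON livers. In the inhibitor pair, atp5if1a took 39.9% (93 of 233 reads, 95% Wilson interval 33.8 to 46.3%) in Egg-2 and 14.3 to 20.2% in the other fish. Among the genes of the c ring, the rotor of the ATP synthase, atp5mc1 took 24.9% (764 of 3064 reads, 95% Wilson interval 23.4 to 26.5%) in Egg-2 and 7.19 to 15.9% in the other fish, and its level was 21.1, 22.4, 12.4 and 11.9 CPM in egg-diet livers, against 13.95, 20.4, 20.4 and 17.4 CPM in CON livers. atp5mc1, atp5if1a and ndufaf2 were the 3 tested members that were highest in Egg-2, the fish whose ovary markers were high and liver markers low. The part of those markers in the shares was not tested. Among duplicates, reads that fit more than one gene were not counted, so a share can also depend on how alike the copies are.

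**Figure D4:**
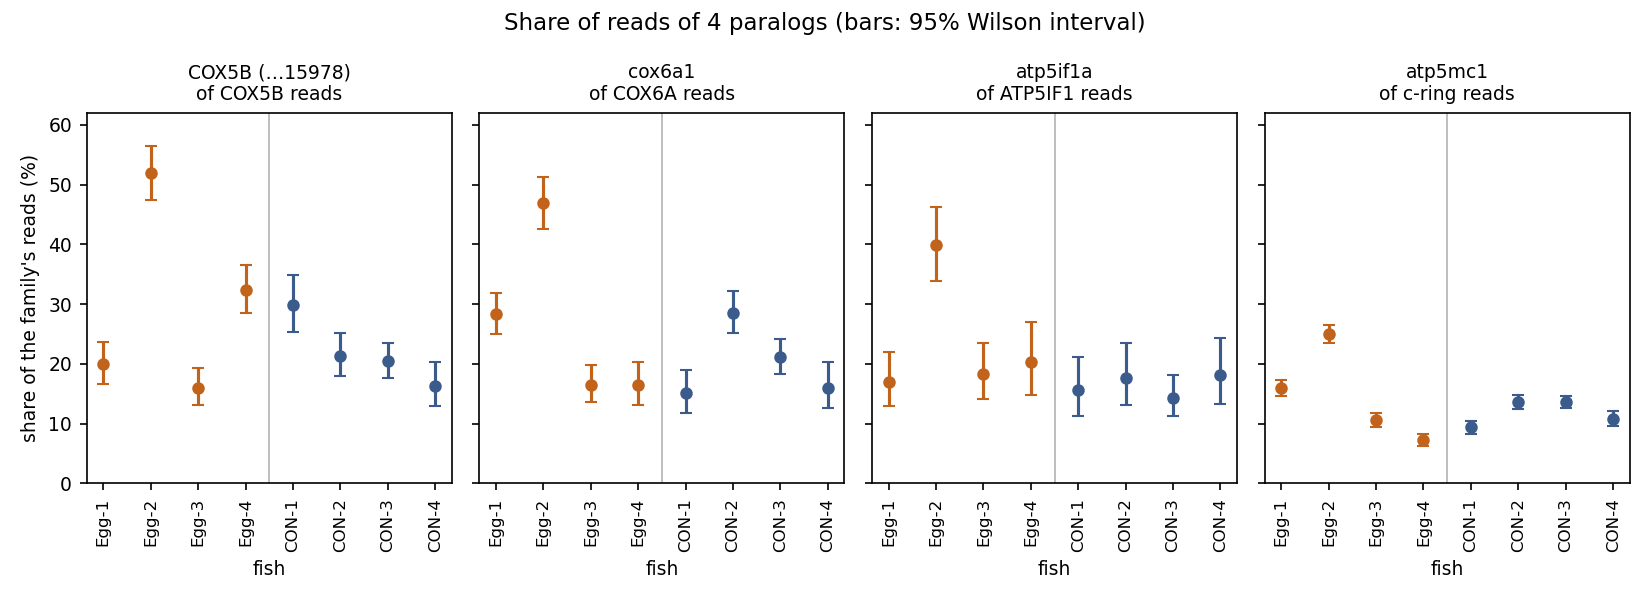
Share of its family's reads taken by COX5B (ENSDARG00000015978), cox6a1, atp5if1a and atp5mc1 in each fish, egg diet left and CON right of the line, with the 95% Wilson interval of the counting error. Egg-2 is above every other fish in all 4 panels (52.0%, 46.9%, 39.9% and 24.9%), and the remaining egg-diet fish overlap with the CON fish.

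Since single fish held the extremes, the comparison was repeated without each. Leaving out Egg-2 brought the medians close to that of all genes, −0.069 for nuclear and −0.061 for mitochondrially encoded members against 0.015, and 0 members were below an unadjusted p of 0.05, where 1.27% of all genes were lower. Leaving out Egg-1 moved the mitochondrially encoded median to −0.49. In that fit 8 members were below an unadjusted p of 0.05, all lower in egg-diet livers, where 2.32% of all genes were. They were ndufb9, ndufa10, ndufab1a, mt-nd3, mt-nd4 and mt-nd5 of complex I and atp5md and atp5mc3a of complex V. Their log2 fold changes lay between −0.66 (atp5md) and −0.53 (atp5mc3a), and none was called after adjustment (smallest adjusted p 0.435 by edgeR). Without both CON-4 and Egg-1, a selection that the study made from these fish's own expression, 5 members were below an unadjusted p of 0.05 (atp5mc3a, atp5md, ndufaf1, ndufb10 and ndufb9), all lower in egg-diet livers, where 2.26% of all genes were. Without both CON-2 and Egg-2 the medians were −0.093 for nuclear and −0.080 for mitochondrially encoded members.

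**Figure D5:**
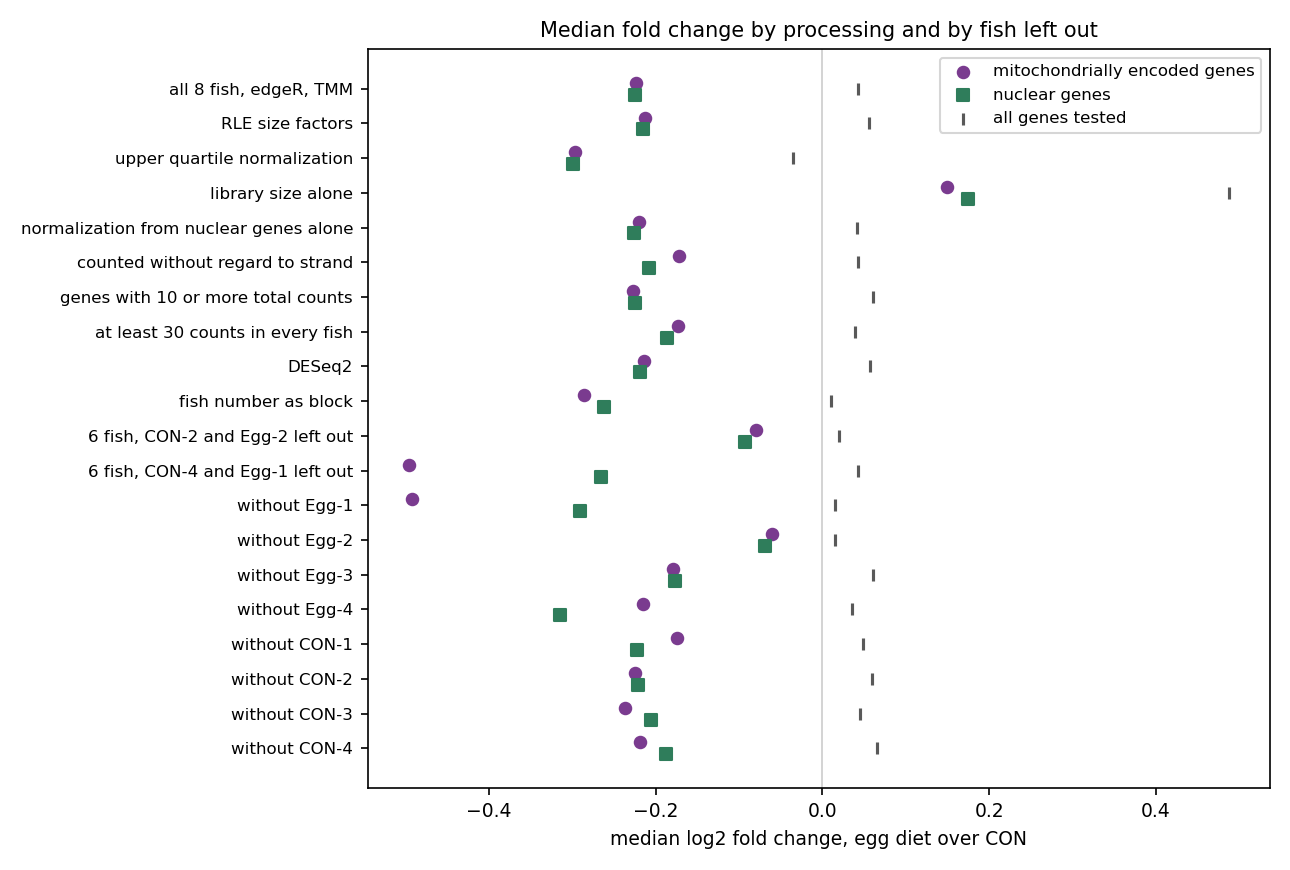
Median log2 fold change (egg diet over CON) of the mitochondrially encoded members, the nuclear members and all genes tested, 1 line per way of processing or per fish left out. The members lie below all genes on every line, and both member medians are above 0 with library size alone (0.17 nuclear, 0.15 mitochondrial), where all genes are at 0.49.

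Genes that serve the same pathway but were not taken by the symbol rule were counted in lists chosen by function. Of 74 tested mitochondrial ribosome genes, which make the mitochondrially encoded proteins, 0 passed adjustment, 1 was higher and 0 were lower in egg-diet livers at an unadjusted p under 0.05, against 2.54% and 1.36% of all genes, and the median log2 fold change was 0.17. Of 21 genes for mitochondrial transcription, replication and RNA processing, 3 were higher and 0 lower at that level, against the same shares of all genes, and the median was 0.18. The 3 were slirp, an RNA-binding partner of LRPPRC, supv3l1, an RNA helicase, and elac2, which trims the trailing ends of tRNAs. slirp had 1.82, 0.761, 1.22 and 1.02 CPM in egg-diet livers, against 0.769, 0.634, 0.665 and 0.54997 CPM in CON livers. supv3l1 had 4.03, 9.57, 2.65 and 3.37 CPM in egg-diet livers, against 3.57, 2.27, 2.25 and 1.17 CPM in CON livers. elac2 had 15.3, 11.01, 7.01 and 5.54 CPM in egg-diet livers, against 5.93, 6.03, 4.56 and 5.71 CPM in CON livers. Egg-1 was highest in slirp and elac2 and Egg-2 in supv3l1, and none passed adjustment (smallest adjusted p 0.8097 by edgeR).

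Assembly factors other than ndufaf genes had 0 of 41 tested genes below an unadjusted p of 0.05 and a median of 0.022. For this and the following lists, 1.36% of all genes were lower and 2.54% were higher in egg-diet livers at that level. The citrate cycle genes, which supply NADH and succinate, had 0 of 14 and a median of −0.17, with 12 of 14 below 0 (1 without scaling factors). Their summed level was lowest in Egg-2, at 349.9 CPM, where the other fish had 537 to 717 CPM, but without scaling factors CON-1 was lowest. Electron carriers and exchangers, among them the cytochrome c genes and the ATP/ADP translocases, had 0 of 19 and a median of −0.089. That list also named cyc1, which encodes a complex III subunit but has no uqcr symbol, so the complex III members lack it. The nuclear regulators of mitochondrial gene expression had 0 of 8 and a median of 0.040. ppargc1a, a coactivator of respiratory genes, had 23.1, 9.07, 32.7 and 19.6 CPM in egg-diet livers, against 34.8, 25.5, 18.8 and 7.01 CPM in CON livers, and esrra, a nuclear receptor that it works with, had 14.8, 3.69, 7.67 and 4.22 CPM in egg-diet livers, against 6.98, 9.1999, 6.11 and 4.26 CPM in CON livers. ppargc1a was highest in CON-1 and lowest in CON-4. esrra was highest in Egg-1 and lowest in Egg-2, with Egg-4 and CON-4 close to Egg-2. The ranks of both genes are of TMM-scaled CPM and depend on the factors. Both were picked from the 8 after their values were seen, and a link to the level of the members was not tested.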

How the data were processed

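RNA from 8 whole female livers was ribosome-depleted, made into strand-specific libraries and sequenced as single 75-bp reads. The authors trimmed with Trimmomatic 0.36, aligned to GRCz11 with STAR 2.5.2b and deposited raw counts per gene, which leave out reads that fit several genes. They tested with DESeq2 1.22.2 and also looked at 6 fish. Here the counts of the gene's own strand were used, with totals of 16916307 to 35871236 per fish; the entries for reads on no gene (44.6 to 51.9% of reads, mostly multimapped) were left out. Groups came from the diet labels, and the tank of each fish is not given in the sources used here. Diets were given by tank, and fish that shared a tank would not be independent replicates. The tests treat the fish as independent.

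All genes passing filterByExpr (minimum count 10) were fitted with edgeR 4.0.16 (R 4.3.3): TMM scaling, quasi-likelihood test, Benjamini-Hochberg adjustment over 13379 genes, threshold 0.1. CPM uses the TMM-scaled library size, and log2 CPM a prior count of 2. Single genes also had exact two-sided permutation tests over 35 splits. Gene symbols came from the name tables. Gene lengths and sequences were not used here. Ranks of genes by mean CPM, and shares and ratios of reads between genes, are therefore not corrected for length.

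Named were all mitochondrially encoded members, the 2 nuclear members with the highest mean CPM in each complex, the 5 with the smallest p in each direction, complex II and the cox4 to cox8 paralogs, the ATP synthase inhibitors and the member that varied most. Other named genes were chosen after their values were seen. The members, lists and rule were chosen with earlier results of these data known. Alternatives were other scalings, filters, strands and tests (DESeq2 1.42.0), a replicate block, and fish left out.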

Additional observations from a re-analysis of the deposited data

Results flagged for a closer look

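Of 150 groups of 4 fish examined, 7 had a fish far from the other 3 of its diet by Dixon's test. Chance gives about 1 in 20, so this number is no more than chance alone would give. All 7 were in CON. The test sets a gap against the range of the 4 fish, and Egg-2, lowest in both sums in CPM, was flagged in none of the groups. CON-4 was high in atp5f1b (218 CPM, nearest 178 CPM), in the summed nuclear complex V members (949.1 CPM, nearest 789 CPM) and in nuclear complex V over nuclear complex I reads (3.64, nearest 3.20). These values overlap, since atp5f1b is part of the sum and its reads are part of the ratio. CON-3 was high in mt-nd6 (49.5 CPM, nearest 43.0 CPM) and low in NDUFS8 (22.8 CPM, nearest 25.6 CPM). CON-2 was low in ndufb2 (4.71 CPM, nearest 5.93 CPM). CON-1 was high in mitochondrially encoded over nuclear complex IV reads (21.3, nearest 17.9).

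Reads of the strand opposite to the gene, which enter none of the levels and fold changes of the members except where strand was ignored, did not overlap between diets in their share at 2 mitochondrial loci. For mt-nd5 they made up 20.6, 20.2, 20.6 and 23.4% of the reads at the locus in egg-diet livers, against 18.2, 16.7, 17.9 and 16.6% in CON livers, with means of 21.2% in egg-diet livers and 17.4% in CON livers. For mt-cyb they made up 0.852, 1.03, 1.13 and 0.836% in egg-diet livers, against 0.693, 0.654, 0.620 and 0.807% in CON livers, with means of 0.964% in egg-diet livers and 0.693% in CON livers. In these 2 of the 13 mitochondrially encoded genes every egg-diet fish was above every CON fish, a pattern shown by 1.21% of the 3813 genes with at least 10 reads of the other strand. The 2 loci were picked after looking at all 13, and no difference was tested with adjustment.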

How the results depend on the processing

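With TMM scaling 0 members were called, and none was called in any of the 19 other fits run, nor at an adjusted p under 0.05. Without scaling factors the medians were 0.17 (nuclear) and 0.15 (mitochondrially encoded) and the log2 ratios of the sums 0.16 and 0.13, with the median of all genes at 0.49, so relative to all genes the medians were −0.31 and −0.34. That setting also gave mt-nd1 0.099, mt-nd2 0.28, mt-nd3 0.072, mt-nd4 0.063, mt-nd4l 0.15, mt-nd5 0.014, mt-cyb 0.098, mt-co1 0.11, mt-co2 0.21, mt-co3 0.20, mt-atp6 0.19, mt-atp8 0.32, ndufa10 0.012, ndufa3 0.082 and atp5if1b 0.088. The count of members at an unadjusted p under 0.05 was 0 without scaling factors, 0 with reads counted without regard to strand, 0 with at least 30 counts in every fish and 5 without CON-4 and Egg-1. Leaving out 1 fish gave 0 (without Egg-2, among others) to 8 (without Egg-1) such members, medians of −0.31 to −0.069 (nuclear) and −0.49 to −0.061 (mitochondrially encoded), and fold changes of −0.50 to 0.12 for mt-nd2, −0.13 to 0.21 for mt-nd6, −0.34 to 0.00011 for mt-co2, −0.54 to 0.017 for mt-atp6, −0.24 to 0.21 for mt-atp8, −0.055 to 0.39 for ndufaf6 and −0.019 to 0.59 for cox6a1. Without CON-2 and Egg-2, mt-nd2 was 0.12, mt-atp6 0.012 and mt-atp8 0.16, and without CON-4 and Egg-1, mt-nd6 was −0.14, ndufv3 −0.077, ndufaf6 −0.17 and cox6a1 −0.13. mt-nd6 was −0.022 with upper quartile scaling and −0.022 without regard to strand, where mt-atp8 was 0.0017 and ndufb2 0.028, and mt-atp8 was 0.018 with at least 30 counts in every fish. The cause of these changes was not tested. Of the remaining values, 449 for single genes and 130 for groups kept their direction and side of the threshold.

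Same-numbered egg-diet and CON fish had correlations of 0.079 to 0.45 in their deviations (mean 0.27 over 4 pairs, against −0.094 over the 12 other pairs). The CON fish of the same number was the best match for Egg-1, Egg-2 and Egg-4 but not for Egg-3 (0.096 with CON-4), so 1 pair was under 0.1, no label ties the numbers together, and they were not taken to pair fish. With the fish number as a replicate block, 0 members were called, the medians were −0.26 (nuclear) and −0.29 (mitochondrially encoded), and mt-nd6 was −0.0084. With 4 fish a diet and a median standard error of 0.259, small differences in single members were not detectable.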
